A study of Drosophila melanogaster with 36 samples.

Results

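The comparison described here sets S3 cells that were fed oleic acid (OA) in the presence of the active derivative of chemotype 3 (active CT3, compound AU-6) against unfed S3 cells that received only the solvent (vehicle noOA). S3 is a cell line derived from Drosophila embryos. Its members were chosen by their sample titles, 3 libraries of active CT3 and 3 libraries of vehicle noOA, which makes 6 of the 36 RNA-Seq libraries of the series. Active CT3 cells received 1 µM AU-6 and 200 µM OA, and vehicle noOA cells received neither. Both groups received 0.1% DMSO, were kept in serum-reduced medium and were collected after 4 h. Compound and fatty acid therefore changed together, and 2 further groups with the same DMSO were used to separate them. Inactive CT3 (3 libraries) received 200 µM OA and 1 µM of AU-73, an inactive derivative with the same arylureido core, and vehicle OA (3 libraries) received 200 µM OA and no compound. Cells with OA (6 libraries) and without OA (6 libraries) that received no DMSO gave the change with OA in libraries that enter none of the comparisons with CT3. The question was which genes returned to the unfed level with active CT3 and which stayed changed.

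Fatty acids that enter an insect cell are activated to acyl-CoA by acyl-CoA synthetases and are then either esterified to triacylglycerol and phospholipid or oxidised. Triacylglycerol is stored in lipid droplets, whose surface carries the perilipins Lsd-1 and Lsd-2, and the lipase Brummer (bmm) opens this store. Oxidation in mitochondria needs the carnitine shuttle, whereas peroxisomes take up acyl-CoA through ABC transporters. De novo fatty acid synthesis in Drosophila is driven by the transcription factor SREBP, which responds to phosphatidylethanolamine and not to sterol.

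The libraries held 3159428 to 6313637 counts in active CT3, 2664823 to 5841490 in inactive CT3, 1208200 to 4918147 in vehicle OA and 1314250 to 5611677 in vehicle noOA. The 18S rRNA gene took 34.7% to 51.5% of the counts of a library over the whole series. Replicate 1 of vehicle noOA and replicate 3 of vehicle OA were the shallow ones, and the Spearman correlations of vehicle noOA replicate 1 with its group were 0.907 and 0.914, against 0.954 between the other 2 libraries. No sample label says whether replicates were separate cultures, so p-values measure the spread between these samples, which may be technical. S3 cells have no single defining marker. Of 8 homeotic genes, abd-A and Abd-B had reads in every library. The list summed to 308 to 320 CPM (counts scaled by normalized library size) in active CT3 and 254 to 277 CPM in vehicle noOA. Most of this was Abd-B, with 245 to 302 CPM in these libraries. Both genes rose, and with single libraries left out each call was lost in 1 fit. Both were also called higher in vehicle OA and in inactive CT3, with list sums of 282 to 328 and 291 to 327 CPM. Hemocyte markers summed to 5194 to 5457 CPM in active CT3, 5289 to 5519 CPM in vehicle OA and 4520 to 4818 CPM in vehicle noOA. In active CT3 and vehicle noOA, Pxn alone had 2729 to 3366 CPM, and NimC1, lz and PPO2 had at most 1 read per library. Of the 9 tested, 3 (srp, eater and vkg) rose against vehicle noOA with active CT3, beside 7.83% of all genes. In vehicle OA 3 of the 9 rose, and in inactive CT3 5. With single libraries left out, the eater call was lost in 3 fits and the vkg call in 2. Muscle markers summed to 588 to 592 CPM in active CT3 and 650 to 675 CPM in vehicle noOA. Most of this was Act57B (266 to 336 CPM) and Mlc2 (199 to 249 CPM), while Mhc, up, wupA, Tm2 and bt had at most 10 reads in any of these libraries. Among 4 tested, Act57B and Mlc2 were lower and Mef2 was higher. With single libraries left out, these calls were lost in 2, 4 and 3 fits. Limma on FPKM placed Act57B and Mlc2 at 0.35 and 0.11, below the median of all genes in that fit (0.39). Neuronal and glial markers summed to 72.1 to 74.1 CPM in active CT3 and 68.7 to 76.2 CPM in vehicle noOA. In the sums of the homeotic, hemocyte and muscle lists, active CT3, inactive CT3 and vehicle OA each did not overlap with vehicle noOA. Muscle sums were 571 to 630 CPM in vehicle OA and 600 to 640 CPM in inactive CT3. Hemocyte sums were 5374 to 5618 CPM in inactive CT3. The part of this in other results was not tested. Fat body markers, 10 genes, summed to 14 to 25 reads in active CT3, 7 to 59 reads in vehicle OA and 7 to 201 reads in vehicle noOA. The highest sums in the vehicle groups came from replicate 2, where the yolk protein gene Yp1 had 32 reads in vehicle OA and 123 reads in vehicle noOA, against at most 2 reads in any active CT3 library.

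Against vehicle noOA, 1016 of 7459 genes tested were called with active CT3, that is 13.6%, at an adjusted p under 0.05 in edgeR's quasi-likelihood test. Of these, 584 genes (7.83%) were higher and 432 genes (5.79%) were lower. The median size of a called change was 0.47 on the log2 scale and the smallest was 0.17. A change of more than 2-fold was found for 117 genes that rose and 47 genes that fell. For 962 of the called genes the 3 and 3 libraries did not overlap, whereas 28.9% of all genes tested showed no overlap. In these bulk samples, less RNA of a gene per cell and fewer cells that express it cannot be told apart. The count was 915 without the shallow vehicle noOA replicate 1. It was 714 without vehicle noOA replicate 3, where the lower genes numbered 282. Limma on the deposited FPKM values called 107 genes and placed the median of all genes at 0.39, against -0.01 with edgeR. In these FPKM values the median gene of vehicle noOA replicate 1 stood at 5.28, against 16.5 and 16.0 in replicates 2 and 3, and without the shallow library of each vehicle group limma called 283 genes with a median of -0.08. The vehicle libraries without OA also served vehicle OA, where 534 genes were called (7.16%, with 3.28% higher and 3.87% lower), and inactive CT3, where 663 were called (8.89%, with 4.64% higher and 4.25% lower). The count for vehicle OA moved with single libraries and was 285 and 325 without its replicates 2 and 1, and 336 without vehicle noOA replicate 3.

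Most genes that OA changes stayed changed with active CT3. In DMSO-free cells, 937 of 7309 genes differed between OA and noOA (12.8%, with 6.75% higher and 6.07% lower), and 174 of them that moved by at least 0.5 on the log2 scale were also tested with DMSO. Of these, 123 (70.7%) were called against vehicle noOA in the same direction with active CT3. The count was 57 of 88 genes that were higher with OA and 66 of 86 that were lower. A gene was taken to be at the unfed level when it was not called and its 95% interval lay within 0.32 of 0 on the log2 scale. This held for 1 gene, LPCAT. The number was 2 without a filter on low counts or without active CT3 replicate 2, 3 with only the groups compared in the fit, 6 with a margin of 1.5-fold and 0 with limma on FPKM. In the opposite direction edgeR and DESeq2 each called 0 of the 174 genes, and 0 had an unadjusted p under 0.05. The remaining 50 genes were not called and their interval passed the margin. Of these, 40 had an average log2 CPM under 3, while others such as Acsl were well expressed. The median average log2 CPM was 1.97 for the 31 higher genes and 2.22 for the 19 lower genes, against 5.12 and 4.97 for genes that stayed changed. In 24 of the 31 and 15 of the 19 the estimate lay in the direction of OA, and 7 and 9 had an unadjusted p under 0.05. With the same controls, 117 of the 174 genes were called in the direction of OA with inactive CT3 and 105 with vehicle OA, and 0 were at the unfed level in either group.

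**Figure D1:**
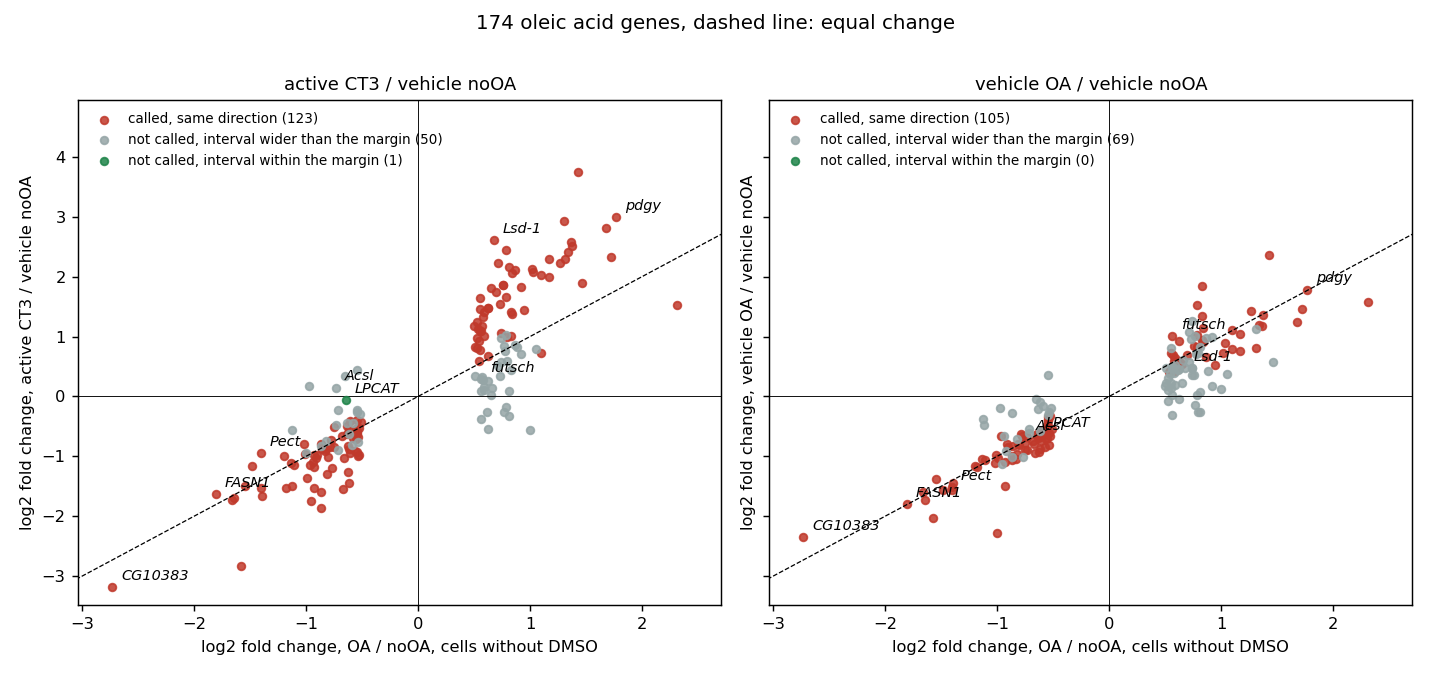
Log2 fold changes of the 174 OA genes against vehicle noOA in active CT3 (left, y axis) and in vehicle OA (right, y axis), plotted against the log2 fold change of OA over noOA in cells without DMSO (x axis); each point is a gene and the dashed line marks equal change. Red points are called in the direction of OA (123 with active CT3 and 105 with vehicle OA), and grey points are not called and have wide intervals. The green point is LPCAT, which limma on FPKM placed at 0.32, where the median of all genes was 0.39.

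Genes higher with OA went further with active CT3. Their median log2 fold change (log2FC) over vehicle noOA was 1.09 with active CT3, 0.78 with inactive CT3 and 0.60 with vehicle OA, while the median of all genes tested lay between -0.01 and 0.00. Tested directly, active CT3 was higher than vehicle OA in 47 of these 88 genes and lower in 1, the microtubule-associated gene futsch, where 360 of all genes (4.83%) were called, 3.98% higher and 0.845% lower. Without vehicle OA replicate 2 the 360 became 235. For futsch the call was lost in DESeq2, which called none of the 88 lower. For the genes lower with OA the medians lay closer together, at -0.88 in active CT3, -0.80 in inactive CT3 and -0.74 in vehicle OA. Of these 86 genes, 5 were higher with active CT3 than with vehicle OA (Inos, Pect, CG2765, LPCAT and Acsl) and 3 were lower (CG12868, CG42365 and CG44085).

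LPCAT (FBgn0052699), a lysophosphatidylcholine acyltransferase that reattaches fatty acids to phospholipids, had 140, 149 and 146 CPM in active CT3, 111, 98.8 and 97.4 CPM in inactive CT3, 95.1, 97.8 and 105 CPM in vehicle OA, and 152, 154 and 150 CPM in vehicle noOA. The active CT3 libraries thus lay just below the unfed ones and above all 6 OA-fed libraries of inactive CT3 and vehicle OA. The log2FC was -0.06 (95% interval -0.20 to 0.08, adjusted p = 0.65, edgeR) against vehicle noOA and 0.56 (standard error (SE) 0.075, adjusted p = 3.0e-07) against vehicle OA, while vehicle OA itself was at -0.63. Limma on FPKM placed LPCAT at 0.32, below the median of all genes in that fit.

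Acsl (FBgn0263120), a long-chain acyl-CoA synthetase, showed a similar pattern but missed the margin. It had 298, 348 and 291 CPM in active CT3, 182, 178 and 166 CPM in inactive CT3, 174, 172 and 183 CPM in vehicle OA, and 279, 287 and 277 CPM in vehicle noOA. All 3 active CT3 libraries were above the unfed ones, which in turn were above every library of inactive CT3 and vehicle OA. Against vehicle noOA the interval was -0.03 to 0.32, just past the margin (log2FC 0.15, adjusted p = 0.31), and against vehicle OA the log2FC was 0.83 (adjusted p = 3.1e-09). Acsl and the genes Dic1, Cds, Orct2, CG2765 and futsch were chosen after their values were seen.

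With no limit on the size of the change, 935 OA genes were tested with DMSO and 529 of them were also called between active CT3 and vehicle noOA. That is 56.6% of the OA genes and 52.1% of the genes called with active CT3, while OA genes made up 12.5% of all genes tested. By the margin used above, 167 of the 935 were at the unfed level and 239 were neither called nor within it. The change with OA of these 167 was small, with a median size of 0.19 and a largest of 0.65 on the log2 scale, and 72 of them were also at the unfed level with vehicle OA. Of the 167, 14 differed between active CT3 and vehicle OA, a comparison in which 4.83% of all genes were called. With inactive CT3 158 of the 935 genes were at the unfed level, and with vehicle OA 136. The direction was that of OA for 526 of the 529 called genes. The other 3, which OA lowered and which stood above the unfed level with active CT3, were Cds, the CDP-diacylglycerol synthase, mino, a glycerol-3-phosphate acyltransferase, and Orct2, an organic cation transporter.

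Orct2 (FBgn0086365) had 521, 533 and 541 CPM in active CT3, 294, 325 and 308 CPM in inactive CT3, 261, 249 and 296 CPM in vehicle OA, and 331, 343 and 332 CPM in vehicle noOA. The active CT3 libraries were the highest and the vehicle OA libraries the lowest or nearly so, with no overlap between either and vehicle noOA. The log2FC was 0.67 (SE 0.071, adjusted p = 7.0e-10) against vehicle noOA and 1.00 against vehicle OA. Cds stood at 94, 114 and 91.8 CPM in active CT3, 64.5, 67.8 and 64.6 CPM in vehicle OA, and 72.3, 76.3 and 77.2 CPM in vehicle noOA, a log2FC of 0.39 (adjusted p = 0.00067). For mino the call rested on vehicle noOA replicate 2. Its log2FC was 0.38 (adjusted p = 0.0021) with all libraries and 0.30 (adjusted p = 0.061) without that one.

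Against vehicle OA, active CT3 moved 27 of the 935 genes opposite to OA and 146 in the direction of OA, of which 138 were higher. The 27 genes were 20 of the 443 that OA lowers and 7 of the 492 that OA raises. Between active CT3 and vehicle OA, 3.98% of all genes were called higher and 0.845% lower, so both counts lay near these shares. Of the 27, 13 also differed between active and inactive CT3, where 3.59% of all genes were called. Besides LPCAT, Acsl, Pect and Inos the 27 included Dic1, the mitochondrial dicarboxylate carrier, and the peroxiredoxins Prx6b and Prx6c, which remove peroxides. Dic1 had 78.5, 81.1 and 78.8 CPM in active CT3, 56.5, 49.7 and 60.8 CPM in vehicle OA, and 87.1, 75.3 and 76.6 CPM in vehicle noOA. Its active CT3 and vehicle noOA libraries overlapped, both apart from vehicle OA, and its log2FC against vehicle noOA was 0.03 (interval -0.13 to 0.19). Prx6c was at 0.08 against vehicle noOA (adjusted p = 0.62) and at 0.43 against vehicle OA (adjusted p = 0.00033).

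Fatty acid synthesis genes were below the unfed level with active CT3, as they were with OA alone. Of 8 genes of this list tested, 6 fell and 0 rose with active CT3 in edgeR (0 rose in DESeq2, and 0 were higher at an unadjusted p under 0.05) against vehicle noOA, with a median log2FC of -0.51 beside -0.01 over all genes tested. Vehicle OA also lowered 6, with a median of -0.40. For this list and those below, 7.83% of all genes tested were higher and 5.79% lower with active CT3 against vehicle noOA. With vehicle OA 3.28% were higher and 3.87% lower. Between active CT3 and vehicle OA the shares were 3.98% higher and 0.845% lower. Between active CT3 and vehicle OA, edgeR and DESeq2 called 0 genes of the list, 1 had an unadjusted p under 0.05, and the median was 0.01. The 6 that fell were AcCoAS, FASN1, ACC, the elongase Baldspot (-0.58), the citrate lyase ATPCL (-0.43) and the desaturase Desat1 (-0.29). The malic enzyme Men was at -0.06 (adjusted p = 0.79) and FASN2 at 0.45 (adjusted p = 0.54), the last with a low average log2 CPM of 2.11.

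FASN1 (CG3523, FBgn0027571), the fatty acid synthase, had 228, 284 and 235 CPM in active CT3, 211, 196 and 281 CPM in vehicle OA, and 869, 721 and 744 CPM in vehicle noOA. All OA-fed libraries lay far below the unfed ones, and those with active CT3 and vehicle OA overlapped. The log2FC was -1.63 (SE 0.12, adjusted p = 6.4e-15) against vehicle noOA and 0.16 (interval -0.09 to 0.41, adjusted p = 0.63) against vehicle OA.

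ACC (FBgn0033246), the acetyl-CoA carboxylase, had 68.6, 66.9 and 60.4 CPM in active CT3, 64.8, 66.8 and 88.5 CPM in vehicle OA, and 202, 184 and 168 CPM in vehicle noOA, a log2FC of -1.49 (SE 0.088, adjusted p = 1.6e-17) against the unfed cells. AcCoAS, the acetyl-CoA synthetase, had 6.44, 8.88 and 7.99 CPM in active CT3, 6.34, 8.25 and 9.23 CPM in vehicle OA, and 30.3, 24.8 and 24.6 CPM in vehicle noOA, with a log2FC of -1.69 (adjusted p = 2.2e-10). For both genes the active CT3 libraries lay within or close to the range of vehicle OA and apart from vehicle noOA. SREBP (HLH106, FBgn0261283), the regulator of this pathway, had 389, 409 and 364 CPM in active CT3, 405, 414 and 391 CPM in vehicle OA, and 709, 677 and 695 CPM in vehicle noOA. It fell by 0.84 on the log2 scale (SE 0.078, adjusted p = 1.4e-11) and differed from vehicle OA by -0.06 (interval -0.23 to 0.10). Its partners SCAP, S1P and S2P, which escort and cut the SREBP protein, were at 0.18, 0.08 and -0.03 and were not called.

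**Figure D2:**
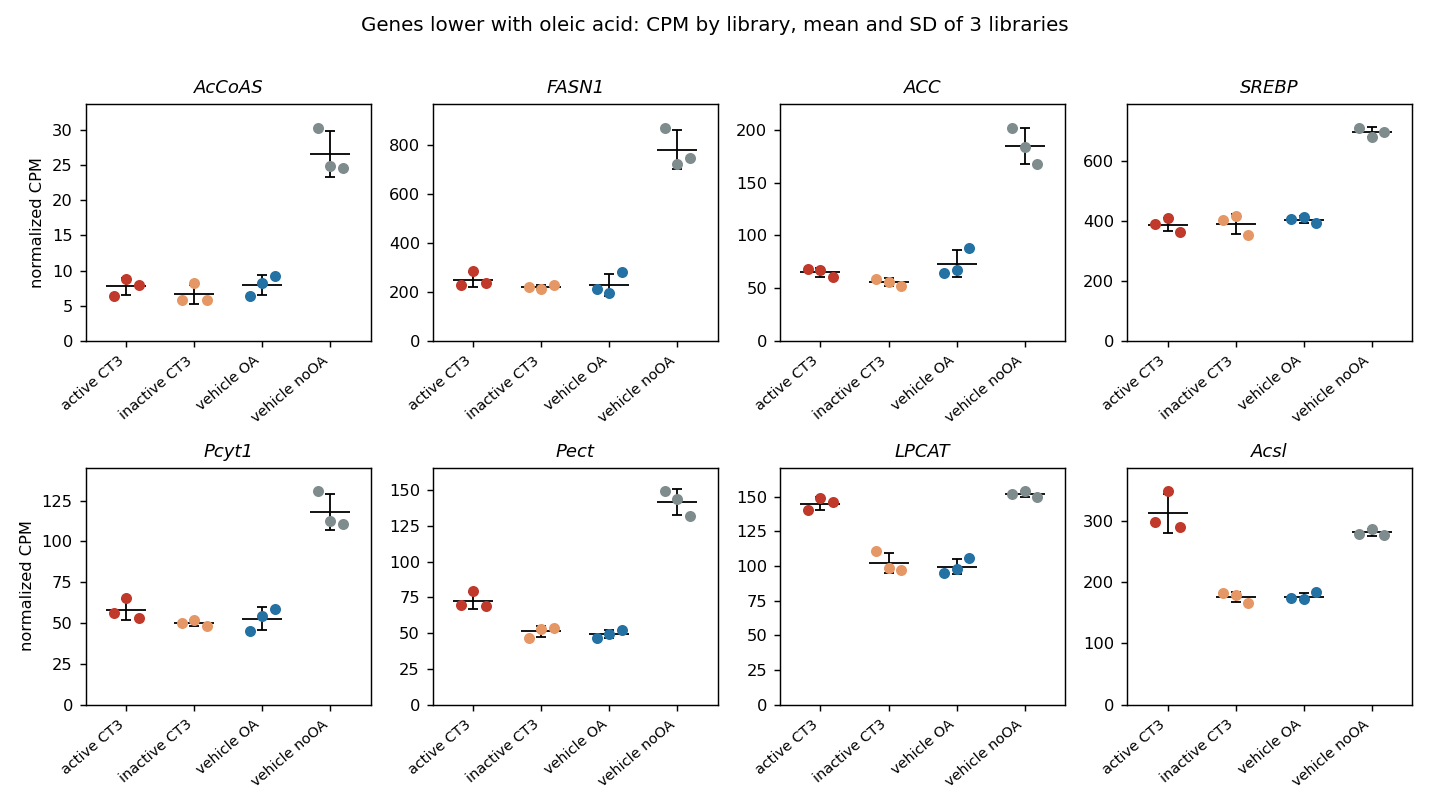
Normalized CPM (y axis, from 0) of 8 genes that OA lowers, by group (x axis: active CT3, inactive CT3, vehicle OA, vehicle noOA); points are libraries, the horizontal line is the mean and the bar the SD of 3 libraries. AcCoAS, FASN1, ACC, SREBP and Pcyt1 stay near the vehicle OA libraries, and Pect lies between (69 to 79.6 CPM in active CT3 and 132 to 149 CPM in vehicle noOA). LPCAT and Acsl with active CT3 lie near the unfed libraries. Limma on FPKM placed LPCAT at 0.32, where the median of all genes was 0.39.

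Phospholipid synthesis fell as well, but less far than with OA alone in some steps. Of 15 genes tested, 9 fell and 1 (Cds) rose against vehicle noOA, with a median of -0.30, while vehicle OA lowered 9 with a median of -0.45. In the direct test 4 genes were higher with active CT3 than with vehicle OA, namely Pect, Inos, Cds and the lysophospholipid acyltransferase nes, and 0 were lower in edgeR, in DESeq2 or at an unadjusted p under 0.05. Pcyt1 (Cct1), which makes CDP-choline, had 56, 65.2 and 52.8 CPM in active CT3, 45.2, 54.3 and 58.5 CPM in vehicle OA, and 131, 113 and 110 CPM in vehicle noOA. Pcyt1 thus overlapped with vehicle OA and lay below all unfed libraries, at 0.501-fold the unfed level (SE 0.088 on the log2 scale, adjusted p = 3.4e-12). The acyltransferase oys was similar, with 113, 124 and 110 CPM in active CT3 and 216, 232 and 219 CPM in vehicle noOA (log2FC -0.96).

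Pect (FBgn0032482), the enzyme that makes CDP-ethanolamine for phosphatidylethanolamine, had 69.5, 79.6 and 69 CPM in active CT3, 46.6, 53.2 and 53.8 CPM in inactive CT3, 46.9, 49.3 and 52.3 CPM in vehicle OA, and 149, 144 and 132 CPM in vehicle noOA. The active CT3 libraries stood between the other OA-fed libraries and the unfed ones without overlap. The log2FC was -0.95 (SE 0.087, adjusted p = 9.8e-12) against vehicle noOA and 0.57 (SE 0.11, adjusted p = 0.00016) against vehicle OA. Inos, the inositol phosphate synthase, had 140, 152 and 131 CPM in active CT3, 95.6, 105 and 133 CPM in vehicle OA, and 197, 194 and 207 CPM in vehicle noOA. Its active CT3 libraries lay below the unfed ones, and the lowest of them lay below the highest of vehicle OA. Its log2FC was -0.50 (adjusted p = 3.7e-06) against vehicle noOA and 0.39 (adjusted p = 0.0019) against vehicle OA. Limma on FPKM placed Inos at 0.13 against vehicle noOA, below the median of all genes in that fit (0.39).

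Most genes for activating and carrying fatty acids were above the unfed level. Acsl was not called against vehicle noOA (log2FC 0.15, adjusted p = 0.31, edgeR). pdgy (pudgy, FBgn0027601), an acyl-CoA synthetase, had 281, 285 and 302 CPM in active CT3, 147, 154 and 149 CPM in inactive CT3, 115, 119 and 158 CPM in vehicle OA, and 32.7, 35.8 and 38.2 CPM in vehicle noOA. The groups with OA all lay above vehicle noOA, and active CT3 lay above all of them. The log2FC was 2.99 (SE 0.099, adjusted p = 4.0e-26), that is 7.96-fold, and 1.21 (adjusted p = 1.8e-14) against vehicle OA. Of 5 genes for acyl-CoA synthesis and fatty acid binding, 4 rose (pdgy, Acbp2, CG3961 and the fatty acid binding protein gene fabp, with 1.09, 0.98 and 0.60 for the last 3), and all 5 including Acsl were higher than in vehicle OA. For fabp, vehicle OA itself was at 0.08 (adjusted p = 0.67).

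The carnitine shuttle had the highest median of the lists, 2.13, with 6 of 7 genes tested higher than in vehicle noOA. The same list had 4 higher and a median of 0.66 in vehicle OA, and 6 of 7 were higher in active CT3 than in vehicle OA. whd (withered, FBgn0261862), the carnitine palmitoyltransferase of the outer mitochondrial membrane, had 626, 606 and 618 CPM in active CT3, 324, 335 and 315 CPM in inactive CT3, 252, 262 and 287 CPM in vehicle OA, and 118, 111 and 121 CPM in vehicle noOA. The 4 groups followed each other without overlap. The log2FC was 2.41 (SE 0.086, adjusted p = 4.8e-25) against vehicle noOA and 1.22 (adjusted p = 5.2e-15) against vehicle OA. The peroxisomal carnitine octanoyltransferase CROT rose by 2.58, the carrier colt by 1.01, and the inner membrane enzyme CPT2 reached 2.84-fold the unfed level. For carnitine synthesis, CG5321 rose by 2.13 (76, 82.8 and 65.6 CPM in active CT3, 22.6, 16.4 and 15.7 CPM in vehicle noOA). Tmlh, the first enzyme of that synthesis in mammals, had only 11, 18 and 35 reads in active CT3 and 3 reads in each vehicle noOA library (log2FC 2.49, adjusted p = 9.6e-05), and it was chosen after its values were seen. The acetyltransferase CRAT was at 0.31 and was not called.

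**Figure D3:**
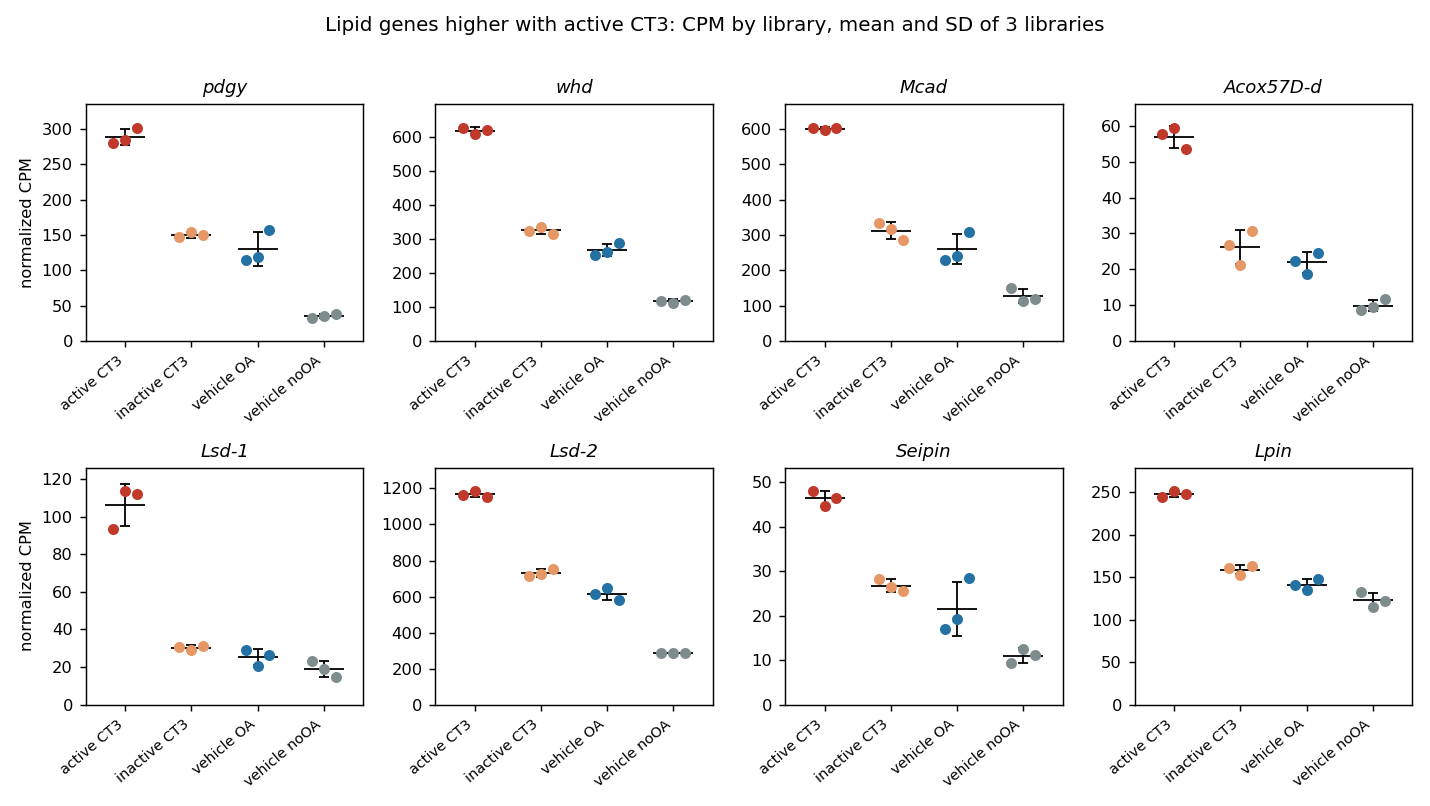
Normalized CPM (y axis, from 0) of 8 lipid genes that rose with active CT3, by group (x axis: active CT3, inactive CT3, vehicle OA, vehicle noOA); points are libraries, the horizontal line is the mean and the bar the SD of 3 libraries. In all 8 genes the 3 active CT3 libraries lie above every other library, and Lsd-1 and Lpin with vehicle OA stay close to the unfed libraries. In cells without DMSO, OA raised Lsd-1 by 0.68 on the log2 scale.

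Mitochondrial beta-oxidation rose in 12 of 18 genes and fell in 1 (CG4860, -0.46), with a median of 0.68. In vehicle OA, 7 rose and 1 fell, with a median of 0.17, and 13 of the 18 were higher with active CT3 than with vehicle OA. Mcad, the medium-chain acyl-CoA dehydrogenase, had 604, 598 and 602 CPM in active CT3, 333, 316 and 287 CPM in inactive CT3, 230, 240 and 308 CPM in vehicle OA, and 149, 113 and 120 CPM in vehicle noOA. Active CT3 lay above all other libraries, and its log2FC against vehicle noOA was 2.29 (SE 0.089, adjusted p = 8.8e-24). The thiolase yip2 rose by 2.07 (483, 461 and 444 CPM in active CT3, 114, 104 and 114 CPM in vehicle noOA). Both subunits of the trifunctional protein, which carries out the later steps of the cycle, rose, Mtpalpha by 1.67 and Mtpbeta by 1.47. Etf-QO, which passes electrons from the cycle to ubiquinone, rose by 1.45. By contrast, none of 27 genes for complex I of the respiratory chain was called by edgeR or DESeq2, beside 13.6% of all genes. The complex I median was -0.01, and 1 gene had an unadjusted p under 0.05. In the citric acid cycle 3 of 16 rose, beside 7.83% of all genes. All 3 were subunits of succinyl-CoA synthetase (Scsalpha1 0.78, ScsbetaA 0.74 and ScsbetaG 0.98).

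Peroxisomal beta-oxidation rose in 10 of 13 genes, with 0 falls in edgeR, in DESeq2 or at an unadjusted p under 0.05, and with a median of 1.09, against 6 rises and a median of 0.33 in vehicle OA. In the direct test 11 of 13 were higher with active CT3 than with vehicle OA. The acyl-CoA oxidase gene Acox57D-d had 57.6, 59.5 and 53.4 CPM in active CT3, 26.9, 21.1 and 30.5 CPM in inactive CT3, 22.3, 18.7 and 24.6 CPM in vehicle OA, and 8.56, 9.44 and 11.6 CPM in vehicle noOA. Active CT3 was again above all other libraries (log2FC 2.45, SE 0.14, adjusted p = 1.4e-18). The multifunctional enzyme Mfe2 rose by 1.32 and the transporter Abcd3 by 1.09.

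The peroxins, which build peroxisomes and import their proteins, rose in 10 of 12 genes with a median of 0.60. In vehicle OA only Pex6 of this list was called, with 0.64 (adjusted p = 0.016), and the median was 0.13. Inactive CT3 raised 3 of the 12, and OA in DMSO-free cells raised 4. Pex14, the docking protein for import, had 97.9, 105 and 96.8 CPM in active CT3, 55.7, 53.5 and 60 CPM in vehicle OA, and 49, 43.7 and 49.8 CPM in vehicle noOA, so that active CT3 stood apart and the vehicle groups lay close together. It reached 2.12-fold the unfed level (SE 0.090 on the log2 scale, adjusted p = 4.7e-13), with a log2FC of 0.85 against vehicle OA. In the direct test 5 of 12 peroxins were higher with active CT3 than with vehicle OA. Without vehicle noOA replicate 1, and likewise in DESeq2, 7 of the 12 were called against vehicle noOA.

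**Figure D4:**
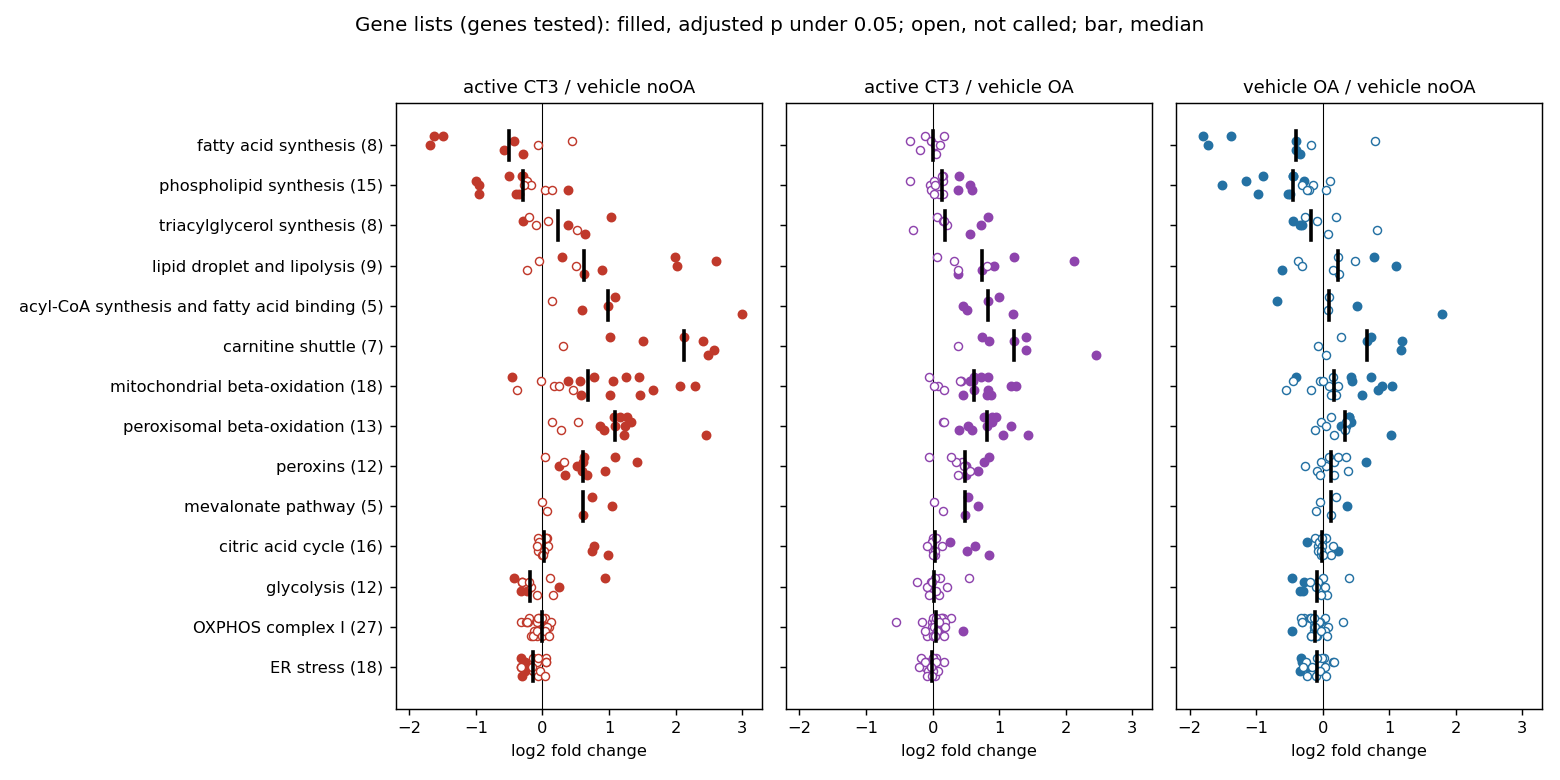
Log2 fold changes (x axis) of the genes of 14 lists (rows, with the number of genes tested) for active CT3 over vehicle noOA (left), active CT3 over vehicle OA (middle) and vehicle OA over vehicle noOA (right); filled points have an adjusted p under 0.05 in edgeR and bars mark medians. In the left panel medians run to 2.13 in the carnitine shuttle, 1.09 in peroxisomal beta-oxidation and -0.51 in fatty acid synthesis. On FPKM, limma placed called ER stress and glycolysis genes such as Calr and PyK above 0 but below the median of all genes in that fit (0.39).

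On lipid droplets, 6 of 9 genes rose and 0 fell in edgeR (0 in DESeq2, and 1 lower at an unadjusted p under 0.05), with a median of 0.63. In vehicle OA, 2 rose and 1 fell, with a median of 0.23. Lsd-1 (FBgn0039114) had 93.4, 113 and 112 CPM in active CT3, 30.8, 28.9 and 31.2 CPM in inactive CT3, 28.9, 20.5 and 26.2 CPM in vehicle OA, and 23.3, 18.7 and 14.8 CPM in vehicle noOA. The vehicle groups overlapped, and active CT3 was several times higher than both. The log2FC was 2.61 (SE 0.13, adjusted p = 2.0e-20) against vehicle noOA and 2.13 (adjusted p = 1.3e-16) against vehicle OA, while vehicle OA was at 0.48 (adjusted p = 0.092). Lsd-1 was called higher in inactive CT3, at 0.78 (adjusted p = 0.00055, edgeR), and with OA in DMSO-free cells, at 0.68. Lsd-2, the other perilipin, had 1166, 1185 and 1153 CPM in active CT3, 614, 647 and 581 CPM in vehicle OA, and 285, 289 and 285 CPM in vehicle noOA. The 3 groups did not overlap. The log2FC of OA alone was 1.10, and that of active CT3 was 2.03 (SE 0.066, adjusted p = 4.0e-26). Seipin, which shapes nascent droplets, rose by 2.00. The droplet protein gene sturkopf rose by 0.90 and the phospholipase gene PAPLA1 by 0.63.

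Among the lipases, bmm had 19, 21.3 and 20.1 CPM in active CT3, 17.4, 16.3 and 13.1 CPM in vehicle OA, and 10.1, 23.1 and 22 CPM in vehicle noOA, where the shallow replicate 1 was low and the groups overlapped. Its log2FC was -0.05 (interval -0.34 to 0.23, adjusted p = 0.87), with either sign when single vehicle libraries were left out. Hsl, the hormone-sensitive lipase, rose by 0.30.

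In triacylglycerol synthesis, 3 of 8 genes rose (Lpin, Gpat4 and mino), Agpat2 fell, and the median was 0.23, while vehicle OA lowered 3 and raised 0 in edgeR (0 in DESeq2, and 1 higher at an unadjusted p under 0.05). Lpin, the phosphatidate phosphatase that makes diacylglycerol, had 244, 251 and 248 CPM in active CT3, 160, 153 and 163 CPM in inactive CT3, 140, 134 and 148 CPM in vehicle OA, and 132, 115 and 121 CPM in vehicle noOA. Active CT3 stood above every other library. It reached 2.05-fold the unfed level (SE 0.084 on the log2 scale, adjusted p = 2.8e-13), while the log2FC of vehicle OA was 0.21 (adjusted p = 0.19). Gpat4, a glycerol-3-phosphate acyltransferase, rose by 0.64. Agpat2 was at -0.30 (adjusted p = 0.037), a call that was lost in DESeq2 (adjusted p = 0.096) and without the shallow libraries (adjusted p = 0.0501). On FPKM limma placed Agpat2 at 0.11, below the median of all genes in that fit (0.39). The diacylglycerol acyltransferase mdy (midway), which completes triacylglycerol, had 52.8, 50.6 and 48.7 CPM in active CT3 and 49.8, 44.5 and 49.8 CPM in vehicle noOA, a log2FC of 0.08 (interval -0.11 to 0.28). Fitm and Ldaf1, which act in the formation of droplets and were chosen after their values were seen, rose by 0.97 and 1.10, and vehicle OA was at 0.32 and 0.41 without a call.

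Among the 10 largest rises of genes with an average log2 CPM of 3 or more were also genes outside lipid breakdown. This ranking took only genes whose active CT3 and vehicle noOA libraries did not overlap, so that separation was a condition of the choice. The same holds for ranked genes named above, such as pdgy, whd, Lsd-1, FASN1 and ACC. daw (dawdle), an activin-like ligand, had 20.3, 25.4 and 20.4 CPM in active CT3, 6.06, 5.64 and 9.23 CPM in vehicle OA, and 3.89, 3.66 and 1.77 CPM in vehicle noOA. Its log2FC was 2.93 (SE 0.27, adjusted p = 1.3e-11), and vehicle OA was at 1.13 (adjusted p = 0.064). It was called higher in inactive CT3, at 1.58 (adjusted p = 0.00098, edgeR), and with OA in DMSO-free cells, at 1.31. Sirup, an assembly factor of succinate dehydrogenase, had 82.1, 75.3 and 74 CPM in active CT3, 19.3, 26.6 and 39.2 CPM in vehicle OA, and 8.56, 11 and 11.4 CPM in vehicle noOA (log2FC 2.81, adjusted p = 1.9e-20). Both genes stood above all other libraries in active CT3. The ubiquitin ligase gene dnr1 rose by 2.51, CG11529 by 2.33 and CG11378 by 3.75, the last with 39, 65 and 97 reads in active CT3 against 2, 3 and 7 reads in vehicle noOA.

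Of the 10 largest falls, ranked with the same condition of no overlap, 2 also differed between active CT3 and vehicle OA. CG10383 had 3.86, 3.6 and 2.22 CPM in active CT3, 6.34, 4.03 and 7.69 CPM in vehicle OA, and 31.1, 26.6 and 27 CPM in vehicle noOA, so that both groups with OA lay far below the unfed cells (log2FC -3.18, SE 0.20, adjusted p = 1.3e-16, 0.111-fold the unfed level). CG4970 (-1.74), CG6330 (-1.65) and Epac, a guanine nucleotide exchange factor activated by cAMP (-1.36), did not differ from vehicle OA by a called amount. The 2 that were lower than in vehicle OA too were CG12868 and CG42365, with -0.60 (adjusted p = 0.0063) and -0.76 (adjusted p = 0.015).

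The glutathione S-transferases, which couple glutathione to electrophiles, moved both ways. Of 27 genes tested, 5 rose and 10 fell against vehicle noOA, beside 7.83% higher and 5.79% lower over all genes. The list median was -0.25, and the falls numbered 8 without vehicle noOA replicate 1 and 6 in DESeq2. In vehicle OA, 3 rose and 5 fell with a median of -0.27, and in the direct test 6 were higher with active CT3 than with vehicle OA and 0 were lower in edgeR (0 in DESeq2, and 2 lower at an unadjusted p under 0.05). The rises were the theta class genes GstT1, GstT2 and GstT3 and the microsomal genes Mgstl and CG33177. GstT3 had 44.4, 36.2 and 41.6 CPM in active CT3, 18.2, 15.1 and 19.2 CPM in vehicle OA, and 10.1, 10.8 and 12.6 CPM in vehicle noOA, with a log2FC of 1.82 (SE 0.14, adjusted p = 3.6e-14). GstT2 rose by 1.64 and Mgstl by 1.33. GstT1 had 105, 108 and 96.5 CPM in active CT3, 75.8, 73.9 and 68.5 CPM in vehicle OA, and 87.9, 76.1 and 78.5 CPM in vehicle noOA, which placed active CT3 above both vehicle groups (log2FC 0.37, adjusted p = 1.0e-04).

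Most of the delta class (GstD1, GstD2, GstD3, GstD5, GstD7 and GstD9) fell. GstD5 had 7.4, 10.1 and 8.59 CPM in active CT3, 16.8, 9.86 and 14.6 CPM in vehicle OA, and 15.6, 26.2 and 24.4 CPM in vehicle noOA, so that active CT3 overlapped with vehicle OA and lay below vehicle noOA. Its log2FC was -1.45 (SE 0.19, adjusted p = 6.9e-08), and the difference from vehicle OA, -0.58, was not called (adjusted p = 0.16). GstD2 was at -1.29 and GstD3 at -0.83. GstD7 was chosen after its values were seen and had only 1, 10 and 8 reads in active CT3 and 2, 15 and 26 reads in vehicle noOA, and its call (adjusted p = 0.031) was lost in DESeq2. Members of the delta class resemble each other in sequence, and reads that fit several of them may have been assigned to one. GstE2 lay within the margin of the unfed level, with 29, 25.4 and 29.9 CPM in active CT3, 23.4, 19.3 and 17.7 CPM in vehicle OA, and 25.7, 30.1 and 29.3 CPM in vehicle noOA. Active CT3 and vehicle noOA overlapped and vehicle OA lay below both (log2FC -0.04, interval -0.26 to 0.17, against vehicle noOA and 0.46, adjusted p = 0.015, against vehicle OA). Limma on FPKM placed GstE2 at 0.37 against vehicle noOA, where the median of all genes was 0.39.

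**Figure D5:**
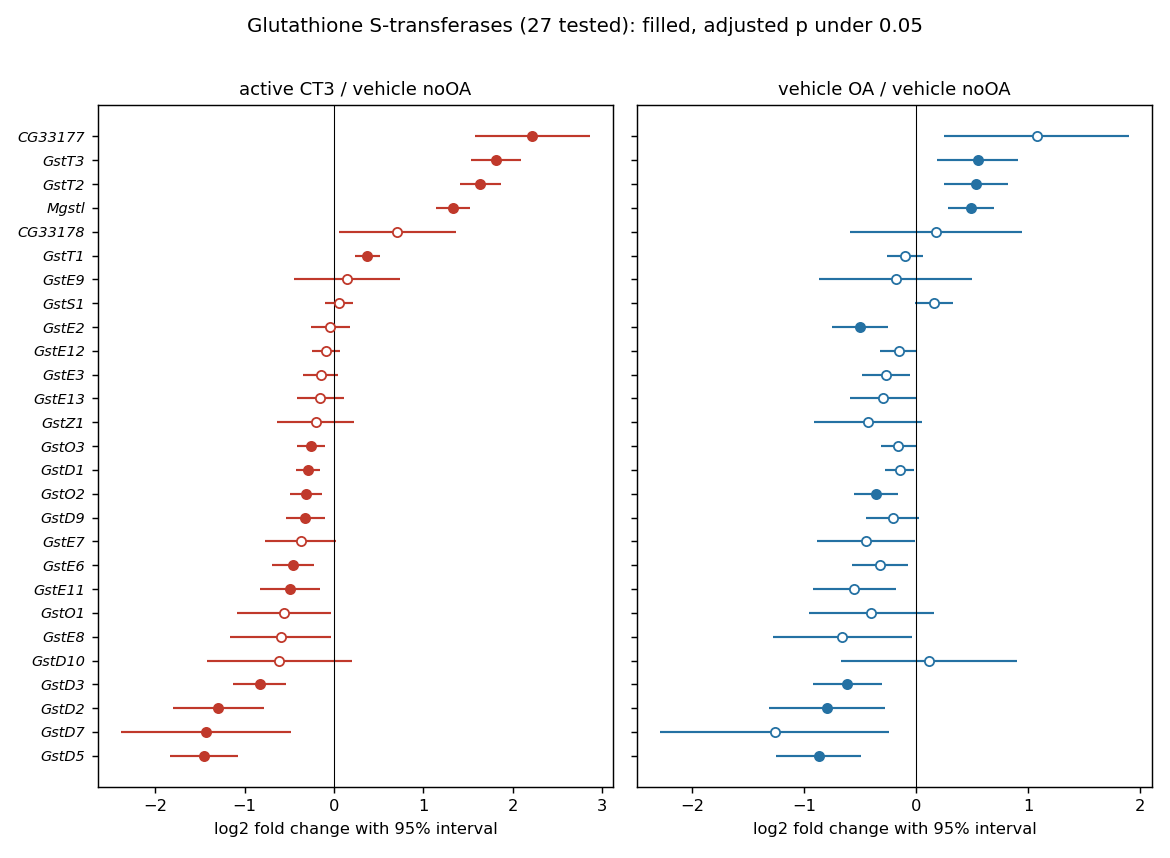
Log2 fold changes (x axis) with 95% intervals of 27 glutathione S-transferase genes (rows) for active CT3 over vehicle noOA (left) and vehicle OA over vehicle noOA (right); filled points have an adjusted p under 0.05 in edgeR. In the left panel 5 genes rose, up to 2.22 in CG33177, and 10 fell, down to -1.45 in GstD5. GstE2 was at -0.04, or 0.37 by limma on FPKM, where the median of all genes was 0.39.

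Among other lists, antioxidant genes of the Keap1-cnc pathway rose in 5 of 19 and fell in 2, with a median of -0.02, beside 7.83% higher and 5.79% lower over all genes. The rises included the peroxidase Gtpx (1.28) and catalase (Cat, 0.45), and the falls were GstD1 and Gclc (-0.69), the catalytic subunit for glutathione synthesis. Cytochrome P450 genes rose in 4 of 30 and fell in 3, beside 7.83% and 5.79% of all genes. In the mevalonate pathway, which in flies makes isoprenoids and no sterol, 3 of 5 rose, Hmgs to 2.06-fold, Fpps to 1.67-fold and qm to 1.53-fold the unfed level. Of 27 ABC transporter genes 6 rose and 3 fell, beside the same shares of all genes, with a list median of 0.03. The rises included CG5853 at 2.15 and Atet at 1.44.

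Genes of ER stress fell in 6 of 18, beside 5.79% of all genes. The list had 0 rises in edgeR, in DESeq2 or at an unadjusted p under 0.05, and a median of -0.14. Among the falls were the chaperones Calr (-0.33) and Hsc70-3 (-0.32). Limma on FPKM placed these 2 at 0.16 and 0.14, below the median of all genes in that fit (0.39). Vehicle OA lowered 4 of the 18, and between active CT3 and vehicle OA 0 were called by edgeR or DESeq2, with 1 at an unadjusted p under 0.05. Glycolysis fell in 4 of 12 and rose in 2, beside 5.79% and 7.83% of all genes, and rose in 1 without vehicle noOA replicate 1. The pyruvate kinase PyK was at -0.42 (0.22 by limma on FPKM, also below that median) and the lactate dehydrogenase Ldh at 0.94. Of 10 nuclear receptor genes, 1 was called, beside 13.6% of all genes. This was Hnf4, a regulator of fatty acid oxidation in flies, at -0.47, with -0.45 in vehicle OA. In insulin, FOXO and TOR signalling 4 of 18 rose and 1 fell, beside 7.83% and 5.79% of all genes, with a list median of -0.04. Without vehicle noOA replicate 1, edgeR called 3 higher and 0 lower. The insulin-like peptide Ilp6 was at 0.55 and its binding protein ImpL2 at 0.42, where vehicle OA was at 0.16 and -0.15 and neither was called.

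The 2 CT3 derivatives share the arylureido core and were given at the same dose and time, and this was the only pair compared. Between active and inactive CT3, 268 genes were called (3.59%), 231 higher with the active one (3.10%) and 37 lower (0.496%). Among the 88 genes higher with OA, 41 were higher with active than with inactive CT3, with a median of 0.48, and among the 86 lower with OA 5 were higher and 0 lower in edgeR (4 and 0 in DESeq2, and 9 and 4 at an unadjusted p under 0.05), with a median of -0.02. In the carnitine shuttle 6 of 7 genes and in peroxisomal beta-oxidation 11 of 13 were higher with active CT3 than with inactive CT3, whereas 0 of the 8 fatty acid synthesis genes were called by edgeR or DESeq2 (1 at an unadjusted p under 0.05). Lsd-1 differed by 1.83 (SE 0.11, adjusted p = 4.8e-16), whd by 0.93 (adjusted p = 5.1e-12), Acsl by 0.82 (adjusted p = 2.1e-09) and LPCAT by 0.50 (adjusted p = 1.5e-06). FASN1 differed by 0.18, with an interval of -0.06 to 0.42, and SREBP by -0.01, with an interval of -0.17 to 0.14.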

How the data were processed

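Libraries came from S3 cells collected at 4 h. The authors aligned reads with TopHat2 2.0.10 to Drosophila genome release BDGP R5, counted them with HTSeq 0.5.4p1 and deposited raw counts per gene without normalization. The authors also deposited FPKM values from Cufflinks 2.1.1. CASAVA 1.8.2 and SAMtools 0.1.19 are named in the submitters' processing notes. Both tables give values by gene, and all columns were mapped to samples by name. Of 17142 gene IDs, 16896 were given a symbol. No coordinates are given because the count table holds gene IDs only.

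Counts of the 24 libraries with DMSO were fitted together with edgeR 4.0.16 in R 4.3.3 (TMM factors, filterByExpr by group, quasi-likelihood F test, group means, no covariates), so that 8 groups of 3 libraries shared an estimate of the spread, and 7459 genes were tested. The 12 libraries without DMSO were fitted separately, with 7309 genes tested. Benjamini-Hochberg adjustment ran over all genes tested within each comparison, and genes were called at an adjusted p under 0.05. CPM use edgeR's normalized library sizes, and the F statistic gave the standard errors and 95% intervals of the log2 fold changes. Gene lists were described by counts and medians only. The scripts were tested on simulated data.

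The members and the gene lists were chosen with earlier results of these data known. Named genes were the 10 largest rises and falls among called genes that had a symbol, an average log2 CPM of 3 or more, and no overlap of libraries; for OA genes, up to 4 of the largest that stayed changed or were at the unfed level in each direction; 16 genes named by the study or in earlier results; and up to 4 called genes with the smallest p in each list. Others are named as members of a list or a count, or as picked once their values were known.

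As alternatives, results were recomputed with RLE factors, DESeq2 1.42.0, no filter on low counts, only the groups compared, 22 libraries without the shallow one of each vehicle group, the replicate number as a block, leaving out the 18S rRNA gene, other margins and size limits, limma 3.58.1 on log2(FPKM + 1) or log2(FPKM + 0.1) with a minimum FPKM of 1.04 and no further normalization, and leaving out each library in turn. Limma on FPKM with 22 libraries, and the list counts without shallow libraries, were added after the data were seen. Counts of 1208200 to 9548314 per library limit low genes most. Some genes of the lists are not reported here by name.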

Additional observations from a re-analysis of the deposited data

How the results depend on the processing

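Between active CT3 and vehicle noOA, the count of called genes (1016) lay between 853 (DESeq2) and 1203 (only the groups compared) on counts, with 1000 with RLE factors, 982 without a filter, 944 in 22 libraries and 1004 without the 18S rRNA gene. Same-numbered libraries of active CT3 and vehicle noOA did not deviate together (correlations 0.020, -0.0049 and -0.021), and with the replicate number as a block 1023 genes were called. Leaving out each library gave 714 to 915 called, 432 to 534 higher and 282 to 381 lower genes, 235 to 350 between active CT3 and vehicle OA (lowest without vehicle OA replicate 2). It gave 285 to 594 between vehicle OA and vehicle noOA, with 285 without vehicle OA replicate 2, 325 without vehicle OA replicate 1 and 336 without vehicle noOA replicate 3. Of the OA genes, 113 to 122 stayed changed, 1 to 2 were at the unfed level (2 without active CT3 replicate 2) and 0 were past it. Limma on log2(FPKM + 1), on log2(FPKM + 0.1) and on log2(FPKM + 1) with 22 libraries called 107, 100 and 283 genes (102, 96 and 177 higher, 5, 4 and 106 lower). The counts were 2, 3 and 50 for vehicle OA and 13, 15 and 112 for inactive CT3 against vehicle noOA, and 31, 27 and 124 for active CT3 against vehicle OA. The first and second placed 45 and 43 OA genes as stayed, and all 3 placed 0 at the unfed level. OA genes at the unfed level numbered 2 without a filter, 3 with only the groups compared, 2 with the replicate block, 6 with a margin of 1.5-fold, 167 without a size limit and 0 with a size limit of 1. Genes that stayed numbered 526 without a size limit, with 3 past the unfed level, and 35 with a size limit of 1. Directions against vehicle noOA turned in limma on log2(FPKM + 1) and log2(FPKM + 0.1), where the median of all genes moved to 0.39 and 0.46, for LPCAT (0.32 and 0.33), bmm (0.56 and 0.70), Inos (0.13 and 0.14), GstE2 (0.37 and 0.38), Agpat2 (0.11 and 0.12), Calr (0.16 and 0.16), Hsc70-3 (0.14 and 0.14), Gp93 (0.31 and 0.31), Xbp1 (0.29 and 0.29), Hsp27 (0.079 and 0.087), PyK (0.22 and 0.23), Gapdh2 (0.12 and 0.12), Eno (0.29 and 0.30), Act57B (0.35 and 0.35) and Mlc2 (0.11 and 0.12), and with 22 libraries for Dic1 (-0.011). With single libraries left out, GstE2 ranged from -0.11 to 0.021, bmm from -0.16 to 0.064, Dic1 from -0.00091 to 0.065, and Yp1, called at -5.43, from -6.19 to 0.38, the last without vehicle noOA replicate 2. Beyond the median shift in limma, the cause of these differences was not tested. Over all fits that left out single libraries, 42 calls of named genes were lost with the sign kept, and the sign changed in 5 results. Apart from these fits and from limma, calls of named genes were lost in DESeq2 (Agpat2, dup and GstD7), without a filter (dup) and in 22 libraries (Agpat2, foxo and dup). Genes under an average log2 CPM of 3, which were 40 of the 50 unplaced OA genes, are those where depth limits what can be said.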
